A study of Lytechinus variegatus with 18 samples.

Results

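Gene expression in whole Lytechinus variegatus embryos that had been in ethanol since fertilization and were collected at 18 hours post fertilization (hpf) was compared with that of untreated control embryos collected at 15 hpf. The members are the 3 ethanol libraries at 18 hpf and the 3 control libraries at 15 hpf, 6 of the 18 libraries in the series, chosen by time and treatment in the deposited sample sheet and paired by replicate letter. The comparison asks which genes stood at the level of control embryos 3 h younger, as a simple delay along the control course would leave them, and which lay outside it. The embryos of all groups were wild type, RNA came from pooled whole embryos, and the ethanol dose and the parents of each replicate are not given in the sources used here. Control embryos at 18 hpf (3 libraries) and ethanol embryos at 15 hpf (3 libraries) were fitted together with the 6 members and are given beside them.

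Lytechinus variegatus is a sea urchin whose embryo develops quickly from a ciliated blastula through gastrulation to a skeleton-bearing pluteus larva. Between the stages sampled, gut, mesoderm and ectodermal territories switch genes on and off in a fixed order set by transcription factors and by Wnt, Nodal, BMP, Delta and VEGF signals. A delayed embryo therefore has late genes still low and early genes still high, and both look like an effect of treatment when embryos of equal age are compared. Comparing with a younger control removes the part of the difference that a delay of that length would make.

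The 6 libraries held 7434025 to 7977631 counts, and 17964 of 27230 gene models passed the expression filter. Each 18 hpf ethanol library had a count for more gene models (23535, 22962 and 23381) than each 15 hpf control library (22741, 21041 and 22630). The part that this has in the rises described below was not tested. All 10 embryonic territories checked had a marker with at least 10 counts in each of the 6 libraries, and 38 of 39 marker gene models tested reached that count. No marker was matched for Spec of the aboral ectoderm. Control replicate 1 at 15 hpf stood apart in Sp-He1, a secreted blastula protease of the hatching enzyme type, with 539 CPM (counts scaled to library size, with TMM scaling factors) against 55.5 and 29.3 CPM in replicates 2 and 3; its difference from ethanol at 18 hpf was not called (-0.76, edgeR adjusted p 0.352). Summed ribosomal protein transcripts of the 3 control libraries at 15 hpf were 22875, 92311 and 42613 CPM, a wide spread that the same-numbered ethanol libraries at 18 hpf followed in part with 23403, 53386 and 19221 CPM. Comparisons below were therefore made within replicate numbers.

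Ethanol embryos at 18 hpf matched 15 hpf controls at many genes and differed from them at many others. Of the 17964 gene models, 4615 (25.7%) differed at a Benjamini-Hochberg adjusted p under 0.05 in edgeR's quasi-likelihood test, 2153 higher and 2462 lower. With upper quartile scaling the larger side turned, with 2491 higher and 2066 lower. The direction was the same in all 3 pairs for 4517 of the 4615, which a fit within pairs favours. Over all genes 26.7% were lower and 28% higher in all 3 pairs. Differences of at least 2-fold were mostly rises, with 1003 genes higher and 462 lower by that size, and the range ran from -2.62 to 7.17 on the log2 scale. Conversely, 9708 gene models (54%) lay within 2-fold of the 15 hpf control level by a test of equivalence (limma-voom, 2 one-sided tests, adjusted p under 0.05), and 1135 of these also differed. For 4776 gene models neither test passed, so that neither equality nor difference can be stated. Without control replicate 1 at 15 hpf, the library high in Sp-He1, 4833 genes were called. Without replicate 3 in every group the count was 598, without replicate 2 it was 2603, and without the pairing it was 124.

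The same fit gives the control course and the other contrasts. Control embryos changed 1032 genes (5.74%) from 15 to 18 hpf, 665 upward (3.7%) and 367 downward (2.04%). Ethanol embryos at 18 hpf differed from control embryos of the same age in 5678 genes (31.6%), and ethanol embryos at 15 hpf differed from 15 hpf controls in 3746 (20.9%). From 15 to 18 hpf ethanol embryos changed 401 genes (2.23%), 318 of them upward. These contrasts share libraries, so their counts are set side by side and no overlap between them is read as a result.

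Genes that controls raised between 15 and 18 hpf lay between the younger and the older control in 18 hpf ethanol embryos, by their median. Over the 665 such genes the median control rise was 1.2 on the log2 scale, while the median difference of 18 hpf ethanol from 15 hpf control was 0.23, with quartiles of -0.24 and 0.78. By the equivalence test, 295 of the 665 (44.4%) were within 2-fold of the 15 hpf control, fewer than the 54% over all genes. Of the 665, 159 were called higher than the 15 hpf control and 59 lower. Over all genes 12% were called higher and 13.7% lower. The 367 genes that controls lowered had a median control change of -0.85 and a median of -0.34 in 18 hpf ethanol embryos against 15 hpf controls, with 234 (63.8%) within 2-fold, against the same 54%. At 15 hpf the ethanol embryos were already displaced the opposite way, by a median of -0.39 for the risers and 0.17 for the fallers. All of these differences are taken from the same 15 hpf control libraries, which ties them together.

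**Figure D1:**
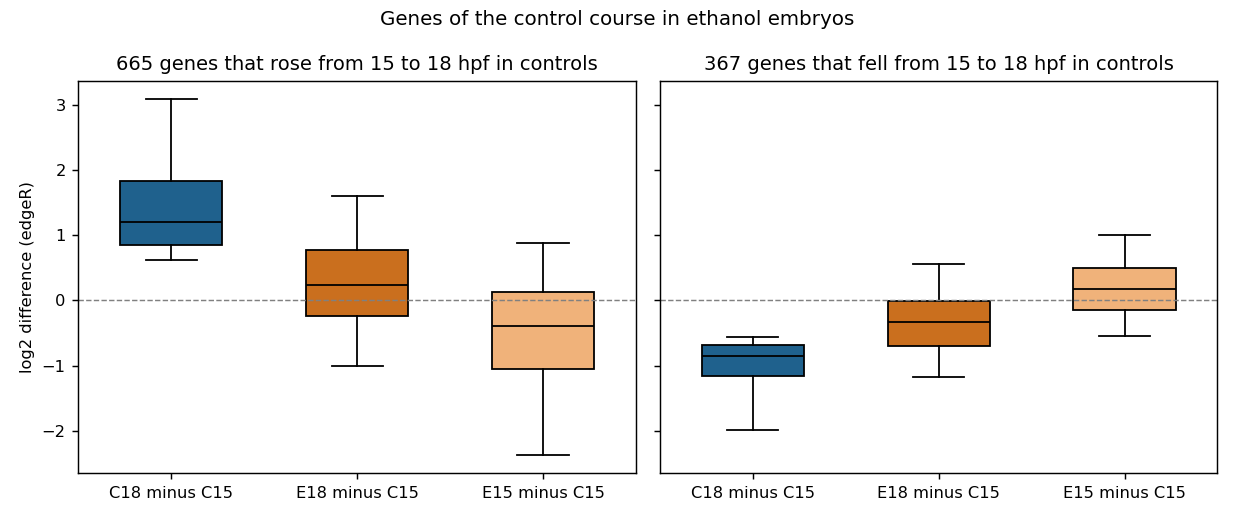
Box plots of edgeR log2 differences from 15 hpf controls for the 665 genes that rose and the 367 genes that fell in controls, in 18 hpf controls, 18 hpf ethanol and 15 hpf ethanol embryos (box, quartiles with median line; whiskers, 5th to 95th percentile over genes). The median for 18 hpf ethanol embryos is 0.23 for risers and -0.34 for fallers, nearer to 0 than the control changes of 1.2 and -0.85.

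A set of 404 genes (2.25%) met all conditions for being held at the 15 hpf level: controls moved them between 15 and 18 hpf, 18 hpf ethanol embryos differed from 18 hpf controls the opposite way, and they were within 2-fold of the 15 hpf control. Controls had raised 248 of them and lowered 156. The count was 35 without replicate 3, 245 without replicate 2 and 157 without replicate 1, and 0 without the pairing. The word held describes the level at 18 hpf only, since the conditions do not use 15 hpf ethanol embryos. It does not mean that a gene stayed still in ethanol embryos. From 15 to 18 hpf these embryos changed by a median of 0.61 over the 665 control risers and -0.45 over the 367 fallers.

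Of the held genes that controls raised, the 6 with the largest control rise are given first. Sp-Lct_3 (L_var_13878, chromosome 7, 30214585 to 30230043) is annotated as lactase-phlorizin hydrolase, which in mammals splits disaccharides on the gut lining. Its 15 hpf control libraries held 6.90, 18.7 and 4.49 CPM, the 18 hpf ethanol libraries 3.54, 14.5 and 7.29 CPM, and the 18 hpf control libraries 83.7, 113 and 77.8 CPM. Young controls and older ethanol embryos overlapped, and every 18 hpf control library was far above both. The ethanol embryos differed from 15 hpf controls by -0.22 (SE 0.34, edgeR adjusted p 0.67; 95% interval -0.96 to 0.57 in limma-voom), against a control rise of 3.34.

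Sp-Aqp8 (L_var_17881), a water channel of the aquaporin family, behaved likewise. It measured 16.1, 51.2 and 13.5 CPM in 15 hpf controls, 8.80, 70.8 and 17.6 CPM in 18 hpf ethanol embryos, and 120, 173 and 89.1 CPM in 18 hpf controls. Replicate 2 was the highest of each trio, so that the pairs lay closer than the group ranges. Sp-Rej9 (L_var_13796), of a family first known as the sperm receptor for egg jelly, measured 3.71, 4.58 and 2.38 CPM in 15 hpf controls, 4.34, 3.75 and 5.70 CPM in 18 hpf ethanol embryos and 36.8, 44.6 and 43.2 CPM in 18 hpf controls. Its control rise was the largest of the named held genes, 3.55 on the log2 scale, and its difference between 18 hpf ethanol and 15 hpf control was 0.40 (SE 0.27, edgeR adjusted p 0.29). The other named risers, Sp-Oach_2 (an acyltransferase homolog), Sp-Apod (apolipoprotein D, a lipid carrier) and Sp-Lct_2, rose by 2.89, 2.70 and 2.58 in controls and differed by -0.16, 0.02 and -0.08 between 18 hpf ethanol and 15 hpf control embryos. In ethanol embryos at 15 hpf, Sp-Lct_3, Sp-Aqp8 and Sp-Oach_2 differed from the 15 hpf control by -2.15, -2.65 and -2.28 on the log2 scale.

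Held genes of the falling kind were still high. Sp-Evi1 (L_var_22339), a zinc finger transcription factor of the Mecom family, measured 18.3, 11.4 and 42.1 CPM in 15 hpf controls, 25.1, 16.1 and 42.9 CPM in 18 hpf ethanol embryos and 5.58, 3.25 and 8.67 CPM in 18 hpf controls. Every 18 hpf control library was below every library of the other groups, which overlapped. The other named fallers were Sp-Bursiconb (a subunit of the bursicon type of hormone), Sp-Moap1L, Sp-Slc1a3 (a glutamate transporter), Sp-Tuba3 (an alpha tubulin) and Sp-QrfprL (a peptide receptor). Their control changes ran from -1.98 to -1.56, and their differences between 18 hpf ethanol and 15 hpf control from -0.13 to 0.30.

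Regulators known from the urchin gene network were also among the held genes; those given here were picked after their values were seen. Sp-Onecut (L_var_11599), the homeobox gene of the ciliary band, measured 90.5, 80.8 and 90.1 CPM in 15 hpf controls, 86.2, 81.9 and 99.8 CPM in 18 hpf ethanol embryos and 166, 150 and 249 CPM in 18 hpf controls. The difference between 18 hpf ethanol and 15 hpf control was 0.03 (95% interval -0.29 to 0.36, limma-voom), against a control rise of 1.08. Sp-Wnt3, a Wnt ligand, and Sp-Hnf4, a nuclear receptor of digestive tissue, had control rises of 1.21 and 1.70 and ethanol to younger control differences of -0.27 and 0.20. In the other direction, the skeletogenic mesenchyme factors Sp-Ets1/2, Sp-Tbr and Sp-Alx1 had fallen in controls by edgeR estimates of -1.22, -0.89 and -0.94 and differed by 0.04, -0.04 and 0.36 between 18 hpf ethanol and 15 hpf control. For Sp-Onecut, Sp-Hnf4 and Sp-Ets1/2 the name is carried by 2 gene models, and reads may be divided between them. The gut homeobox gene Sp-Lox (the Pdx1 homolog) lay at 0.639, 2.38 and 1.12 CPM in 15 hpf controls, 5.71, 13.8 and 14.5 CPM in 18 hpf controls and 0.114, 1.21 and 0.528 CPM in 18 hpf ethanol embryos. Its ethanol libraries overlapped the younger controls at low counts, and neither a difference (edgeR adjusted p 0.0876) nor a level within 2-fold passed.

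**Figure D2:**
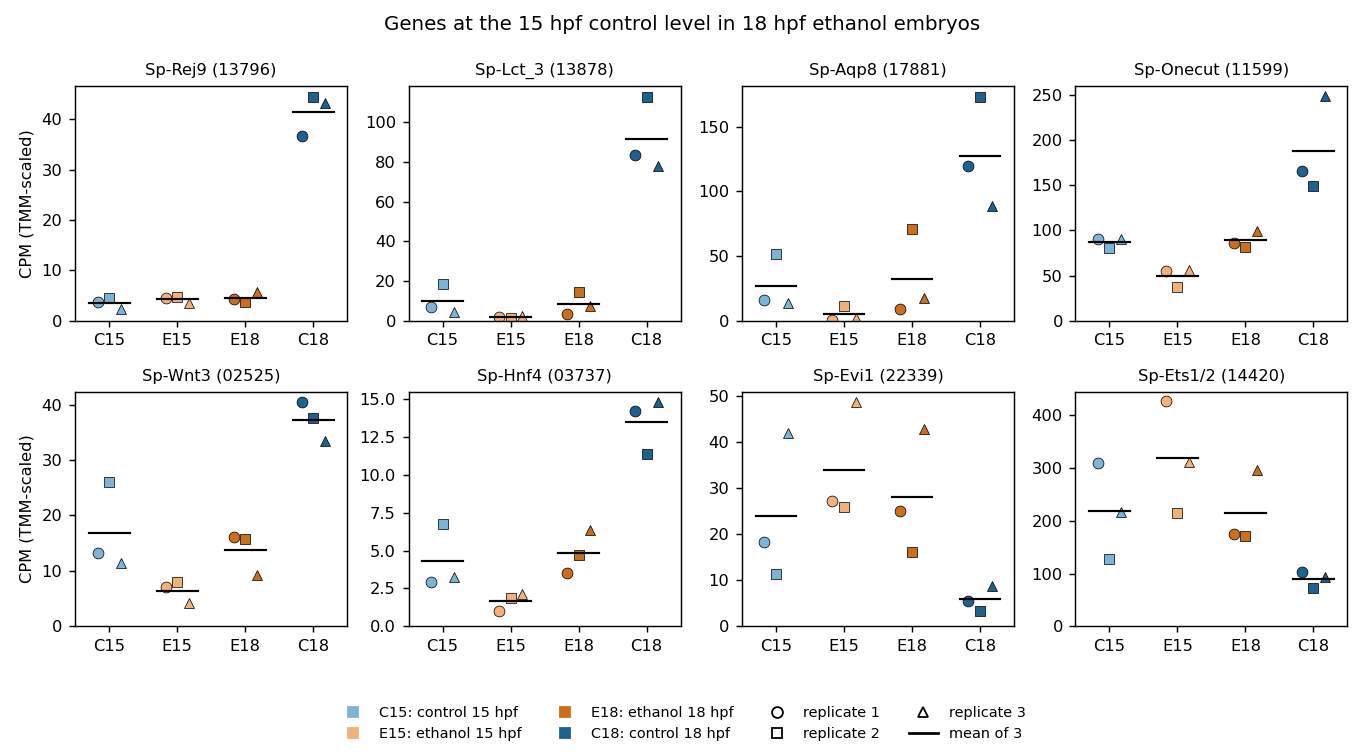
CPM of 8 genes in each library of 4 groups (C15 and C18, controls; E15 and E18, ethanol; marker shape, replicate number; line, mean of 3). The E18 points lie near the C15 points, and the C18 points lie above them for the 6 risers and below them for Sp-Evi1 and Sp-Ets1/2.

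Genes outside both control levels lay where no position on the course from 15 to 18 hpf would put a gene that moves one way. Control embryos before 15 hpf were not sampled, so a delay of over 3 h cannot be told apart here from a change off the course. The held conditions do not exclude a difference from 15 hpf controls, so a gene can be both held and outside both levels. An intersection-union test, which requires 18 hpf ethanol embryos to differ in the same direction from the younger and from the same-aged controls, called 2318 genes (12.9%), 953 higher than both (5.31%) and 1365 lower than both (7.6%; edgeR p-values, Benjamini-Hochberg over all genes). With upper quartile scaling, the split was 1196 higher and 1050 lower. The count was 69 without replicate 3, 788 without replicate 2, 2720 without control replicate 1 at 15 hpf, and 0 without the pairing, where 1605 genes had an unadjusted p under 0.05. Genes named from here on as outside both control levels passed this test. Calls described below as kept or lost when replicates were left out are those against 15 hpf controls, unless both controls are named.

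Among the genes named by size of change, the smallest adjusted p belonged to Sp-Slc16a14L_1 (L_var_26247, chromosome 18, 16092800 to 16118871), a member of the Slc16 family of monocarboxylate transporters, which move lactate, pyruvate and related acids across membranes. Its 15 hpf control libraries held 2.17, 2.38 and 1.82 CPM, the 18 hpf ethanol libraries 24.3, 59.9 and 30.1 CPM, and the 18 hpf control libraries 4.65, 8.94 and 4.40 CPM. The ethanol libraries were all above all control libraries of both ages. The log2 difference from 15 hpf controls was 4.07 (SE 0.23, edgeR adjusted p 2.55e-07), and it was 2.64 from 18 hpf controls. A relative, Sp-Slc16a14_1, was 2.43 higher than in 15 hpf controls (SE 0.25, edgeR adjusted p 7.34e-05), while Sp-Slc16a7 rose by 1.62 but matched the 18 hpf control with a difference of 0.00 from it. Of 55 Slc16 genes tested, 6 (10.9%, against 12% over all genes) were called higher than in 15 hpf controls and 1 lower.

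Other rises by size were Sp-Z313L (L_var_20182) with 4.49 and its namesake L_var_18974 with 3.08, Sp-Znfx1-11 with 3.52, the cytochrome P450 gene Sp-Cyp2L40 with 3.41, Sp-Trim2L with 3.22, Sp-Hypp_21 with 2.76, the cation channel gene Sp-Trpc_1 with 2.66, and the scavenger receptor type genes Sp-Srcr179 and Sp-Cd163L with 2.63 each. Their adjusted p-values in edgeR ran up to 0.0216. Sp-Trpc_1 and Sp-Srcr179 lay on the control course, since controls raised them by 2.18 and 2.43 by 18 hpf. All others were outside both control levels. Counts were low: Sp-Z313L (L_var_20182) had 0.128, 0.17 and 0.701 CPM in 15 hpf controls and 5.37, 11.3 and 7.50 CPM in 18 hpf ethanol embryos. The name Sp-Z313L is carried by 17 gene models and Sp-Cyp2L40 by 7, so reads could be divided between copies. Sp-Znfx1-11 lost its call without replicate 3 (edgeR adjusted p 0.136), as did Sp-Cd163L (0.22). The call of Sp-Cd163L was also lost without replicate 2 (edgeR adjusted p 0.13) and in DESeq2 (adjusted p 0.064), and its difference ran from 1.85 without replicate 2 to 4.71 without replicate 1. The difference ran from 2.60 without replicate 3 to 4.13 without replicate 1 for Sp-Znfx1-11, and it was 5.65 without replicate 3 for Sp-Z313L (L_var_20182).

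Genes of amino acid metabolism moved in opposite directions. Sp-Psat1 (L_var_07040, chromosome 3, 49401194 to 49413571), phosphoserine aminotransferase of the serine synthesis pathway, had the largest fall of the named genes. It measured 389, 337 and 394 CPM in 15 hpf controls, 421, 221 and 256 CPM in 18 hpf controls and 64.4, 86.9 and 63.6 CPM in 18 hpf ethanol embryos. All 3 ethanol libraries were below all 6 control libraries, and the log2 difference from 15 hpf controls was -2.39 (SE 0.23, edgeR adjusted p 5.09e-05). By contrast Sp-Asns_1 (L_var_21562), annotated as asparagine synthetase with 54.6% identity to its match, measured 31.6, 38.2 and 100 CPM in 15 hpf controls, 44.2, 29.9 and 51.6 CPM in 18 hpf controls and 171, 155 and 248 CPM in 18 hpf ethanol embryos. Its log2 difference was 1.88 (SE 0.28, edgeR adjusted p 0.000501). The same name is carried by 3 gene models, and the other two, with identities of 76.2% and 76%, were not called (edgeR adjusted p 0.8 and 0.569). Sp-Chac, a homolog of the glutathione-degrading enzyme CHAC1, rose from 4.22, 9.33 and 5.75 CPM to 27.1, 30.3 and 30.8 CPM, by 2.24 on the log2 scale (SE 0.31, edgeR adjusted p 0.000314). Asparagine synthetase and CHAC1 are known in mammals as targets of the amino acid and unfolded protein responses. Whether either response was active here was not tested. Of 36 enzymes of amino acid and one-carbon metabolism, 6 were called higher and 6 lower than in 15 hpf controls, against 12% and 13.7% over all genes. The calls of Sp-Psat1, Sp-Asns_1 and Sp-Chac were kept when any 1 replicate number was left out.

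Further falls by size included Sp-Notum, which in other animals is a secreted enzyme that inactivates Wnt ligands, with 12.3, 35.0 and 21.6 CPM in 15 hpf controls against 3.66, 5.50 and 5.07 CPM in 18 hpf ethanol embryos. The groups did not overlap, which was required of genes named by size and was true of 21% of all genes. The difference for Sp-Notum was -2.22 (SE 0.31, edgeR adjusted p 0.000346). Sp-Nmral1_2, an NmrA-like gene, measured 13.5, 48.4 and 19.5 CPM in 15 hpf controls, 2.40, 13.4 and 3.27 CPM in 18 hpf ethanol embryos and 56.2, 137 and 84.7 CPM in 18 hpf controls. Controls raised this gene by 1.90, and ethanol embryos differed from the younger control by -2.19. The zinc finger gene models Sp-Z147 (L_var_16622 and L_var_16583), Sp-XyltL, Sp-Trex2L, a homolog of an exonuclease, and Sp-Hypp_1772 differed by -2.09, -2.02, -1.86, -1.85 and -1.80. Each of these was below both control levels. Each kept its call against 15 hpf controls when any 1 replicate number was left out. Their standing below both levels was not followed gene by gene. Without replicate 3, 18 genes over all were called below both control levels, against 1365 in the main fit.

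**Figure D3:**
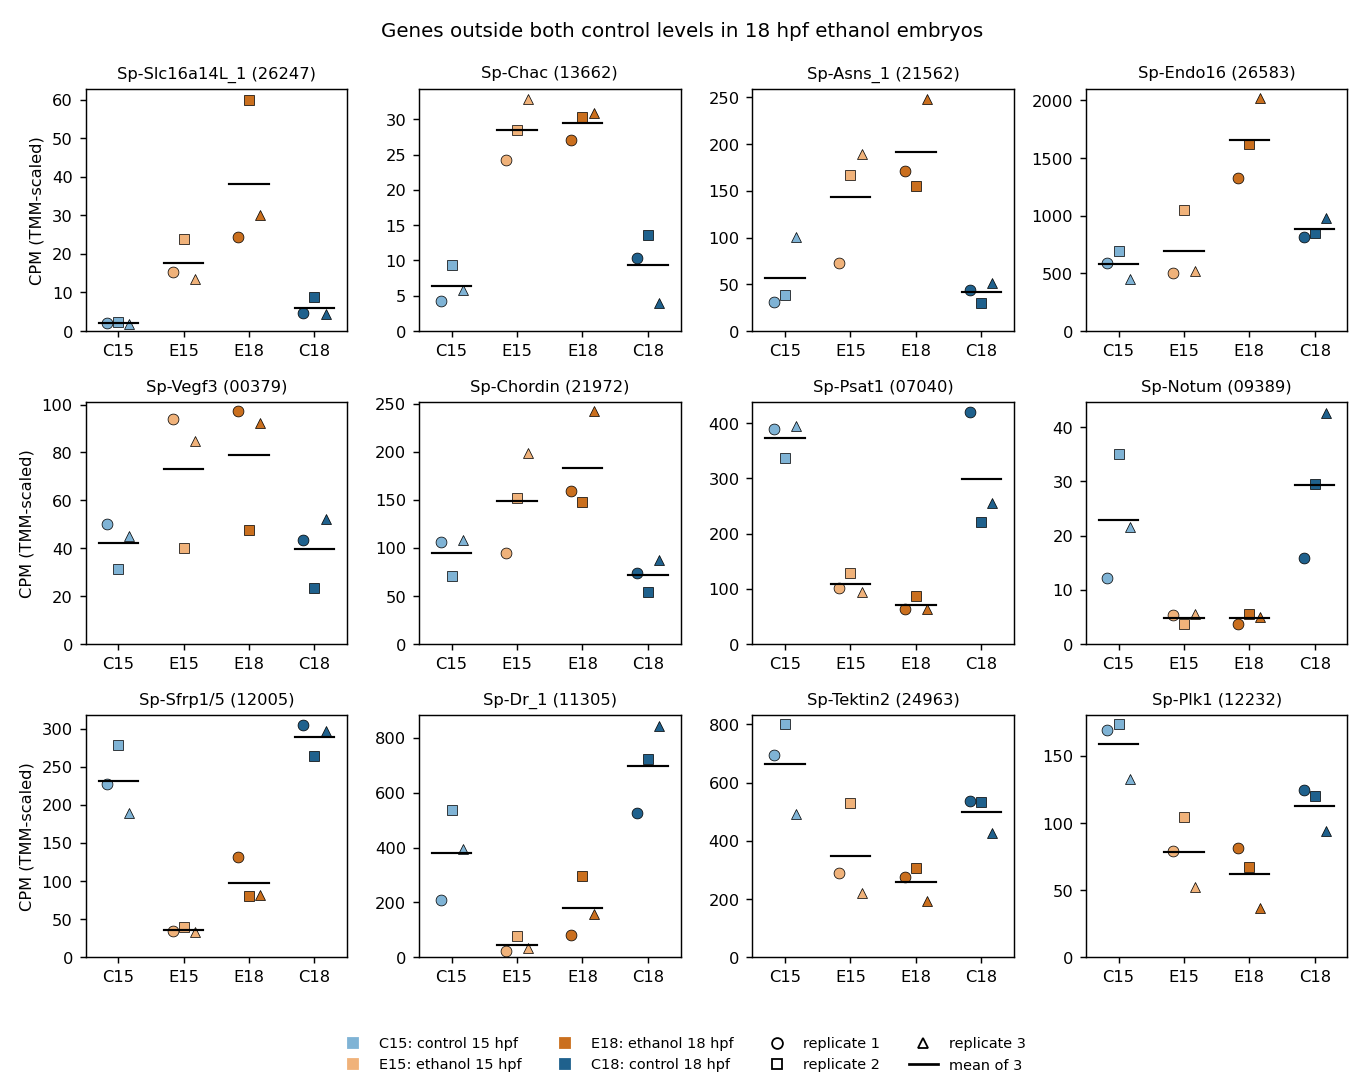
CPM of 12 genes outside both control levels, in each library of 4 groups (C15 and C18, controls; E15 and E18, ethanol; marker shape, replicate number; line, mean of 3). E18 lies above both control groups for the first 6 genes and below them for the last 6; for Sp-Vegf3 and Sp-Dr_1 single libraries of the groups overlap and the order holds within replicate numbers.

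Gene lists for the territories and functions of the embryo are described by counts against the background of 12% called higher and 13.7% called lower over all genes. In bulk RNA from whole embryos, fewer cells of a type and less RNA per cell cannot be told apart. Directions stated for the lists below were the same under TMM, relative log expression and upper quartile scaling.

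Wnt ligands were mostly higher than in the younger control: 6 of 11 rose and 1 fell, with a median of 0.60. For most of the risers the control estimate rose too. In controls from 15 to 18 hpf, however, only 2 of the 11 were called higher and 2 lower (3.7% and 2.04% over all genes). Sp-Wnt6, Sp-WntA, Sp-Wnt10 and Sp-Wnt9 were 0.95, 1.15, 1.28 and 2.02 higher than in 15 hpf controls. By estimate, 18 hpf controls were 1.06, 0.88, 0.83 and 1.10 higher than 15 hpf controls. Sp-Wnt8, the early ligand of the vegetal domain, fell from 399, 413 and 345 CPM to 218, 198 and 170 CPM, by an edgeR estimate of -0.99 (SE 0.15, adjusted p 0.000674), and controls fell by -0.75. Controls lowered Sp-Wnt16 by -0.85, and ethanol embryos exceeded the younger control by 0.60 (SE 0.17, edgeR adjusted p 0.0201), above both levels. Sp-Wnt1 rose by 0.56 (edgeR adjusted p 0.0429) and was not called outside. Without replicate 3, of the 11 ligands only Sp-Wnt8 was called, and Sp-Wnt1 also lost its call without replicate 2 (edgeR adjusted p 0.152).

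Anterior neuroectoderm and neural genes leaned downward, with 9 of 21 lower, 1 higher and a median of -0.37. Of these, 6 were below both control levels. Sp-Sfrp1/5 (L_var_12005), a secreted Wnt antagonist of the animal pole, measured 227, 278 and 190 CPM in 15 hpf controls, 304, 265 and 296 CPM in 18 hpf controls and 131, 80.9 and 82.0 CPM in 18 hpf ethanol embryos. No ethanol library reached a control library, and the difference from 15 hpf controls was -1.25 (SE 0.19, edgeR adjusted p 0.00056). At 15 hpf the ethanol embryos had 35.0, 40.1 and 33.1 CPM, so that the level had risen by 18 hpf without reaching that of the younger control. The homeobox genes Sp-Nkx3-2, Sp-Lhx2 and Sp-Brn1/2/4 and the Wnt modulator gene Sp-Dkk3 lay below both levels, with log2 differences of -0.94, -0.89, -0.83 and -1.17 from 15 hpf controls. Sp-Lhx2 lost its call when any 1 replicate number was left out (edgeR adjusted p 0.0531 to 0.0931). Sp-FoxQ2_1, a forkhead gene of the apical plate, fell by an estimate of -0.94, but controls had fallen too and it was not outside. The Wnt antagonist Sp-Dkk1 rose by 0.69. The list median was -0.37, -0.29 and -0.41 in the 3 pairs. Without replicate 3 the calls left against 15 hpf controls were 2, those of Sp-Sfrp1/5 and Sp-Dkk3. In that fit 0 genes of the list were below both control levels.

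Ectodermal and dorsal-ventral genes were called higher in 4 of 21 cases and lower in 1. Sp-Vegf3 (L_var_00379), the ectodermal ligand that guides skeletogenic cells, measured 50.4, 31.4 and 45.3 CPM in 15 hpf controls, 43.4, 23.6 and 52.3 CPM in 18 hpf controls and 97.4, 47.7 and 92.2 CPM in 18 hpf ethanol embryos. Replicate 2 was lowest in every group, and within each replicate number the ethanol library was the highest of the 3. The difference was 0.86 (SE 0.15, edgeR adjusted p 0.00137). Sp-Chordin, a BMP antagonist of the oral ectoderm, rose from 107, 70.4 and 108 CPM to 159, 148 and 242 CPM, by 0.92 (SE 0.20, edgeR adjusted p 0.00466), and like Sp-Vegf3 it exceeded both control levels. The aboral homeobox gene Sp-Hox7 was lower than both, at 88.3, 147 and 114 CPM against 128, 251 and 205 CPM in 15 hpf controls. Sp-Bmp2/4 and Sp-Tbx2/3 rose by 0.49 and 0.55 and were not called outside. Sp-Nodal, the oral signal, was not called, with 97.3, 67.0 and 57.4 CPM against 105, 93.3 and 84.2 CPM. Without replicate 3 the list had 0 calls (edgeR; adjusted p 0.0584 for Sp-Vegf3 and 0.119 for Sp-Chordin). Without replicate 2 the calls of Sp-Bmp2/4 and Sp-Tbx2/3 were lost (edgeR adjusted p 0.219 and 0.0718), Sp-Tbx2/3 also lost its call without replicate 1 (0.0551), and DESeq2 did not call Sp-Bmp2/4 (adjusted p 0.0531).

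Of 16 skeletogenic regulators tested, 10 (62.5%, against 54% over all genes) were within 2-fold of the 15 hpf control, and 10 were higher than in controls of the same age, a call made for 14.6% of all genes. In the comparison with the younger control 1 was higher, Sp-FoxN2/3 by 0.48, and 1 was lower. The lower one was Sp-Dr_1 (L_var_11305, chromosome 5, 43631572 to 43651157), a deadringer homolog that in urchins is known from skeletogenic cells and later from the oral ectoderm. It measured 210, 536 and 393 CPM in 15 hpf controls, 528, 722 and 842 CPM in 18 hpf controls and 83.0, 297 and 158 CPM in 18 hpf ethanol embryos. The ethanol library was the lowest within every replicate number, although ethanol replicate 2 exceeded control replicate 1 at 15 hpf. The difference was -1.16 (SE 0.23, edgeR adjusted p 0.00289), outside both control levels. Without replicate 3 the list had 0 calls (edgeR adjusted p 0.0869 for Sp-Dr_1 and 0.232 for Sp-FoxN2/3), and without replicate 2 Sp-FoxN2/3 lost its call too (0.152). Of 25 biomineralization genes, which encode spicule matrix and cell surface proteins of the skeleton, 15 (60%, against the same 54%) were within 2-fold and 1 was called, Sp-Fam20c, a secretory pathway kinase, which was 0.77 higher and lost its call when any 1 replicate number was left out. Sp-Sm50, a spicule matrix gene, had 122, 277 and 205 CPM against 165, 228 and 131 CPM in ethanol embryos.

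Endoderm genes lay on either side. Sp-Endo16 (L_var_26583, chromosome 19, 3203448 to 3215444), a secreted adhesive protein of the midgut, measured 587, 695 and 448 CPM in 15 hpf controls, 817, 852 and 977 CPM in 18 hpf controls and 1324, 1622 and 2022 CPM in 18 hpf ethanol embryos. All ethanol libraries exceeded all control libraries, by 1.53 over the younger control (SE 0.25, edgeR adjusted p 0.000928). The endodermal regulators Sp-Bra, Sp-FoxA, Sp-Blimp1 and Sp-Eve were lower than in 15 hpf controls, with differences of -0.80, -0.76, -0.69 and -0.54, and none of the 13 endoderm genes was called below both control levels. Of these, Sp-Eve and Sp-Bra had fallen further or as far in controls, by -1.04 and -0.92. In non-skeletogenic mesoderm, 3 of 17 genes rose and 1 fell: the receptor gene Sp-Notch exceeded the younger control by 0.69 and lay above both levels, Sp-SoxE rose by 0.99 along the control course, and the repressor Sp-HesC fell by an estimate of -1.24, below both. Of 5 germ line genes, Sp-FoxY, a forkhead gene of small micromeres, was the single call, at 46.6, 121 and 52.7 CPM against 87.2, 211 and 110 CPM. The calls of Sp-Endo16, Sp-Notch, Sp-SoxE, Sp-HesC, Sp-FoxY and the 4 endodermal regulators were lost without replicate 3 (edgeR adjusted p 0.0507 for Sp-Endo16). Without replicate 2 those of Sp-Notch, Sp-SoxE, Sp-FoxA and Sp-Eve were lost (edgeR adjusted p 0.142, 0.211, 0.0606 and 0.0896), and Sp-Eve also lost its call without replicate 1 (0.0675). Upper quartile scaling ended the calls of Sp-FoxA and Sp-Eve (edgeR adjusted p 0.0598 and 0.0672).

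**Figure D4:**
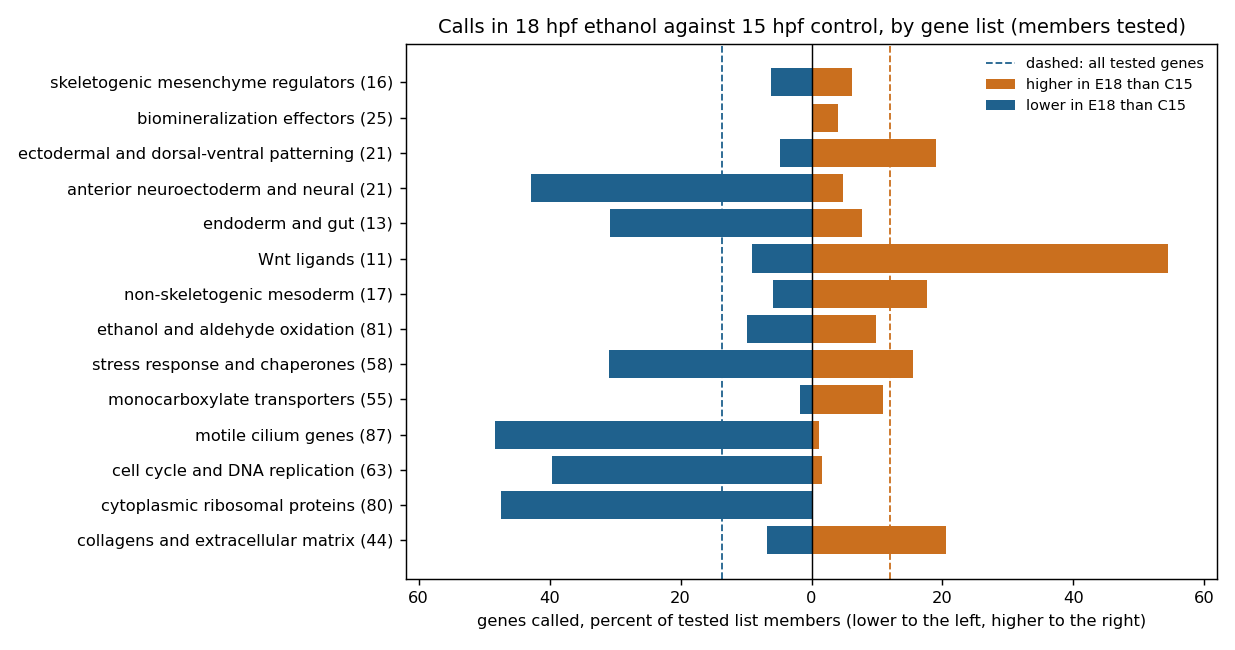
Share of tested members of each list of at least 10 genes called higher (right) or lower (left) in 18 hpf ethanol than in 15 hpf control embryos; the dashed lines are the shares over all genes, 12% and 13.7%. Lower calls reach 48.3% for motile cilium genes and 47.5% for ribosomal proteins, and higher calls reach 54.5% for the 11 Wnt ligands.

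Motile cilium genes were lower than in the younger control. Of 87 tested, 42 fell and 1 rose, with a median of -0.63, and 36 were below both control levels. The median was close to equal in the 3 pairs, at -0.58, -0.58 and -0.54. Sp-Tektin2, a filament protein of ciliary microtubules, measured 694, 801 and 492 CPM in 15 hpf controls, 537, 535 and 427 CPM in 18 hpf controls and 277, 307 and 193 CPM in 18 hpf ethanol embryos. The ethanol group lay below both control groups without overlap, by -1.35 against the younger control (SE 0.19, edgeR adjusted p 0.000383). Sp-Rsp3h of the radial spoke and Sp-Ift80L1 of intraflagellar transport differed by -1.17 and -1.10. Tubulin genes held the largest falls: Sp-Btub3 (L_var_03560), a beta tubulin, fell from 41.4, 80.6 and 62.7 CPM to 13.5, 15.8 and 13.5 CPM, and Sp-Atub13 (L_var_08141), an alpha tubulin, from 1842, 3939 and 2804 CPM to 687, 999 and 621 CPM. The name Sp-Btub3 is carried by 7 gene models and Sp-Atub13 by 9, between which reads may be divided, and tubulins also serve spindles and cell shape. Leaving out replicate 3 left 15 lower calls, and Sp-Atub13 was not among them (edgeR adjusted p 0.0584). That fit had 3 genes of the list below both control levels, against 36 with all replicates.

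Cell cycle and DNA replication genes fell in 25 of 63 cases and rose in 1, with a median of -0.46 and pair medians of -0.40, -0.41 and -0.52. The mitotic kinase gene Sp-Plk1 (L_var_12232) measured 159 CPM ± 22.3 (SD, n = 3) in 15 hpf controls and 81.3, 67.6 and 36.5 CPM in 18 hpf ethanol embryos, with 125, 120 and 93.9 CPM in 18 hpf controls. Every ethanol library was below every control library of either age, with a difference of -1.41 from the younger control (SE 0.18, edgeR adjusted p 0.000227). Sp-Cdk1, the mitotic cyclin-dependent kinase, and Sp-Mcm6, a subunit of the replicative helicase, lay below both levels as well, with differences of -1.09 and -1.01 from 15 hpf controls. Sp-Cdc20 and Sp-Cycb3, which act in mitosis, followed the controls, which lowered them by -0.93 and -0.65; their ethanol differences were -1.17 and -0.80. The exception was Sp-CycD, a cyclin of the G1 phase, which was 0.72 higher (SE 0.17, edgeR adjusted p 0.0066). In all, 14 of the 63 were below both levels, against 0 without replicate 3. Without replicate 3 the list had 5 lower calls, with Sp-Cdk1, Sp-Mcm6, Sp-Cycb3 and Sp-CycD no longer called (edgeR adjusted p 0.0669 to 0.166).

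Ribosomal protein genes of the cytoplasm fell in 38 of 80 cases and rose in none, with 25 below both control levels and a median of -0.65. From 15 to 18 hpf in controls their median difference was 0.58, with 3 of the 80 called higher, near the share of 3.7% over all genes. This fall was not shared by all pairs. Pair 1 had a median of 0.01, against -0.84 in pair 2 and -1.12 in pair 3, where the summed levels given above also differ. Sp-Rpl30 (L_var_01652), a protein of the large subunit whose name is carried by 3 gene models, shows it, with 40.8, 240 and 121 CPM in 15 hpf controls and 36.6, 105 and 46.5 CPM in 18 hpf ethanol embryos. The ranges overlap because replicate 1 was low in both groups. Without replicate 3 the list had 0 calls and without replicate 1 it had 72, so the size of this fall is set by the replicates used. The part that the library-wide spread in these transcripts has in the other falls was not tested.

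**Figure D5:**
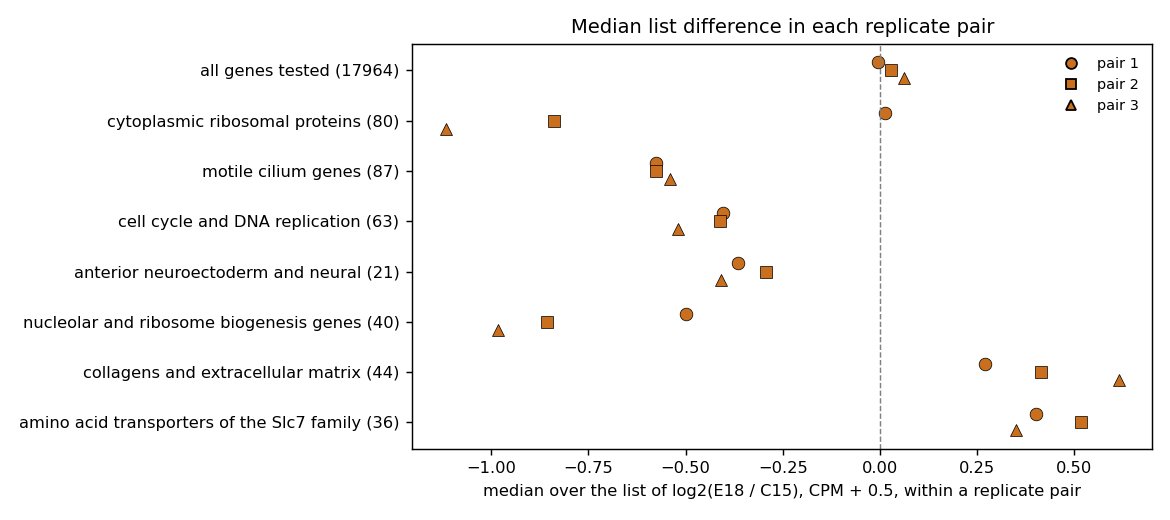
Median over each list of the log2 ratio of 18 hpf ethanol to 15 hpf control CPM (with 0.5 added), within each replicate pair (marker shape). Ribosomal proteins lie at 0.01, -0.84 and -1.12, while motile cilium genes lie at -0.58, -0.58 and -0.54 and all tested genes lie between -0.01 and 0.06.

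Stress and chaperone genes were called lower in 18 of 58 cases and higher in 9. Chaperones and cochaperones made up the lower calls. Sp-Hsp701A (L_var_06962), whose closest match is HSPA8 and whose name is carried by 6 gene models, measured 580, 521 and 1319 CPM in 15 hpf controls and 277, 225 and 579 CPM in 18 hpf ethanol embryos, and the cochaperone genes Sp-Hsp40A (L_var_08010) and Sp-Dnajc2 differed by -1.43 and -1.24. Replicate 3 of Sp-Hsp701A was the highest in each group, and each ethanol library was below its own control. Its difference was -1.15 (SE 0.24, edgeR adjusted p 0.00319), and all of these were below both levels. The higher calls included genes of the endoplasmic reticulum: Sp-Hsp901 and Sp-Hsp702A, whose closest vertebrate matches are HSP90B1 and HSPA5, rose by 1.02 and 0.69, and Sp-Xbp1, a transcription factor of the unfolded protein response, by 0.93. Another such gene, Sp-Dnajhc10, with DNAJC10 as its match, was lower, at -0.51. None of the risers of the endoplasmic reticulum exceeded both controls, whereas Sp-Chac, Sp-Asns_1 and Sp-GadD45 (1.19 higher, a growth arrest gene) did. The calls of this list without replicate 3 were 1 lower, Sp-Hsp40A, and 3 higher, Sp-Chac, Sp-Asns_1 and Sp-Xbp1. In that fit 0 genes of the list were below both control levels and 1 was above both. Sp-Hsp702A also lost its call without replicate 1 (edgeR adjusted p 0.0952).

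Genes that could oxidize ethanol or acetaldehyde were called about as often as other genes, 8 of 81 higher and 8 lower. The alcohol dehydrogenase genes called were both lower and below both control levels: Sp-Adhfe1 went from 104, 136 and 132 CPM in 15 hpf controls to 53.5, 70.1 and 45.0 CPM in 18 hpf ethanol embryos, -1.16 on the log2 scale (SE 0.17, edgeR adjusted p 0.000468), and Sp-Adh3 differed by -0.64. Sp-Cyp2L42 was 1 of the genes below the younger control on a rising course, with 46.1, 190 and 21.3 CPM against 95.5, 256 and 62.9 CPM at 15 hpf and 399, 593 and 208 CPM at 18 hpf in controls. The list had 2 higher calls and 1 lower without replicate 3, and 0 of its genes were then below both control levels. Sp-Adh3 lost its call without replicate 2 and without replicate 3 (edgeR adjusted p 0.0618 and 0.258), and Sp-Cyp2L42 without replicate 1 and without replicate 3 (0.0803 and 0.341), with upper quartile scaling (0.0514) and in DESeq2 (0.0961). Collagens and other matrix genes were called higher in 9 of 44 cases, 7 of them above both controls, and lower in 3. Sp-Col18a1Lf (L_var_02735), a collagen whose name is carried by 12 gene models, rose from 54.4, 35.1 and 48.7 CPM to 104, 75.9 and 145 CPM, by 1.22 (SE 0.18, edgeR adjusted p 0.000431). Sp-ColL and the metalloprotease gene Sp-Adamts16/18L rose by 1.28 and 1.72, and the metalloprotease gene Sp-Mmp18/19L4 fell by an estimate of -1.15. Of these, Sp-Col18a1Lf and Sp-Adamts16/18L kept their calls against 15 hpf controls when any 1 replicate number was left out. Sp-ColL and Sp-Mmp18/19L4 lost theirs without replicate 3 (edgeR adjusted p 0.115 and 0.129). In that fit the list had 3 higher calls and 0 genes above both controls.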

How the data were processed

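Reads were processed by the submitters with fastp, STAR and featureCounts, per the submitters' processing notes; their versions, the genome build, the strand setting and any filter are not given in the sources used here. The deposited table holds whole-number counts per gene model, 1 column per sample. The deposited sample sheet lists time, treatment and a letter from A to C for every column, read here as replicate numbers 1 to 3. A deposited annotation names gene models by their best match in the purple sea urchin Strongylocentrotus purpuratus (names beginning with Sp-), with the percent identity of the match per the file headers; listed genes needed at least 50 percent. Coordinates are those of that annotation, of unstated build.

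Counts were analysed in R 4.3.3 with edgeR 4.0.16 (filterByExpr, minimum count 10, minimum total 15; TMM; quasi-likelihood F test; Benjamini-Hochberg, threshold 0.05) on the 12 libraries at 15 and 18 hpf, with 4 group means and the replicate number as a block. The 21 hpf libraries were left out because a pair there had gone against its labels in earlier results. Equivalence within 2-fold and 95% intervals came from limma 3.58.1. Standard errors are the log2 difference over the square root of F, an approximation. All tests were two-sided except the equivalence tests. The numbers pair the samples: deviations from group means correlated at 0.612, 0.713 and 0.603 between same-numbered libraries of the groups compared, and at 0.571 to 0.766 over all 18 same-numbered pairs. Nothing says that replicates came from separate parents. The p-values measure the spread between these samples that is left after differences between replicate numbers are fitted. No pair of libraries agreed within sampling noise (chi-square per degree of freedom at least 14.4). The fits were also run on simulated counts whose replicate effects were the same in every group. Replicate effects that differ between groups, as the pairs differ for ribosomal proteins, were not simulated.

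Genes were named where annotated, averaging 2 or more in log2 CPM and with groups that do not overlap: the 10 largest rises and falls, and the 6 largest in each direction outside both controls. Listed genes that were called, and the 6 held genes with the largest control rise and fall, were exempt from the overlap condition, listed genes also from the level. Comparison, lists (198 symbols, 706 gene models) and rules were chosen with earlier results of these data known. Alternatives left out the block, a replicate number or a library, and changed the tool (DESeq2 1.42.0, limma-voom), scaling, filter, libraries fitted and margin.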

Additional observations from a re-analysis of the deposited data

How the results depend on the processing

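The replicate pairing decided the counts. Without the replicate block, the calls between 18 hpf ethanol and 15 hpf control embryos numbered 124, those outside both controls 0, those within 2-fold 3471 and the held genes 0. With all 18 libraries and the block, these were 1539, 0 (3067 at an unadjusted p under 0.05) and 7711, with 8 held. Leaving out a replicate number gave 598 to 5007 calls, 69 to 2186 outside both controls, 6638 to 7813 within 2-fold and 35 to 245 held. Leaving out a single library, an alternative chosen after seeing the data, gave 2069 to 4833 calls and 443 to 2720 outside both controls. A margin of 1.5-fold gave 0 genes within it (4365 at an unadjusted p under 0.05) and 0 held. DESeq2, limma-voom, other scalings, no filter and the groups compared alone moved no count by over 1.5 times. Of 106 named genes that were followed, 85 were called. None of the 85 changed direction in the alternatives that followed genes, which the fits without a single library did not. Of the 85, 72 lost the call without the block, 50 without replicate 3, 15 without replicate 2, 6 without replicate 1 and 41 with all 18 libraries. The cause was not tested.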

Other observations

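Further gene families, chosen after the data had been seen, are described by their counts in the comparison of 18 hpf ethanol with 15 hpf control embryos. Over all genes 12% were called higher, 13.7% lower and 7.6% below both controls. Nucleolar and ribosome biogenesis genes were lower in 32 of 40 cases, with a median of -0.76 and 22 below both controls. Subunits of oxidative phosphorylation were lower in 29 of 55 and proteasome subunits in 18 of 28, with medians of -0.61 and -0.62 and no member higher. Pair 1 was the smallest for all of these, as for ribosomal proteins: -0.50 against -0.86 and -0.98 for nucleolar genes, and -0.21 against -0.60 and -0.88 for oxidative phosphorylation. Without replicate 3 the lower calls left were 2, 0 and 0, and none of these families had a gene below both controls. Amino acid transporters of the Slc7 family were higher in 10 of 36 cases and lower in 1, scavenger receptor cysteine-rich genes in 9 of 50 and 1, and aminoacyl-tRNA synthetases in 9 of 33 and 1. Without replicate 3 the higher calls left were 1, 5 and 0. Enzymes of amino acid and one-carbon metabolism were higher in 6 and lower in 6 of 36.

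Besides Sp-Psat1, the serine synthesis enzyme Sp-Phgdh, which opens the pathway, was lower, with 35.0, 53.4 and 29.4 CPM in 18 hpf ethanol embryos against 86.4, 113 and 117 CPM in 15 hpf controls and 174, 134 and 161 CPM in 18 hpf controls. The difference from the younger control was -1.45 (SE 0.22, edgeR adjusted p 0.000569). Sp-Phgdh was not among the genes followed through the alternatives. The remaining enzyme of that pathway, Sp-Psph, was not called (-0.16, edgeR adjusted p 0.542).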
